A study of Homo sapiens with 6 samples.

Results

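The human genome keeps a large share of its zinc finger genes on chromosome 19, and the deposited table holds 246 protein-coding genes there whose symbol is ZNF followed by a number. They were picked by symbol, gene type and position alone, out of 58302 gene rows. Of the 246, 156 reached 1 CPM (counts per 1000000 counts of a library, without TMM scaling) in at least 3 of the 6 libraries and are called expressed here, while 168 passed the filter of the test between groups. Another 48 had counts but stayed under that minimum, and 42 had no count in any library. A count of 0 allows a level of up to 0.176 to 0.224 CPM, the value of 3 counts, depending on the library. Just inside the minimum were ZNF418 and ZNF671, and just outside it were ZNF582 and ZNF525. The level that 3 libraries reached was 1.03 CPM for ZNF418, 1.25 CPM for ZNF671, 0.962 CPM for ZNF582 and 0.904 CPM for ZNF525. These values used library totals alone, while the CPM values of single libraries given below include TMM scaling.

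The libraries come from A549, an established line of human lung adenocarcinoma cells, at passages 6 to 8. The SNHG5 group (3 libraries) was transfected with SNHG5, a long non-coding RNA that hosts small nucleolar RNAs, and the control group (3 libraries) was transfected with Vector. All cells were grown in the same serum-containing medium, and the labels give neither the time after transfection nor whether the transfection was transient. The labels call the libraries biological replicates but name no separate cultures, so p-values measure the spread between these libraries. SNHG5 itself stood at 153, 126 and 62.9 CPM in SNHG5 libraries 1 to 3, against 61.0, 101 and 55.1 CPM in controls 1 to 3, a log2 fold change of 0.66 (SE 0.37) with an edgeR adjusted p of 0.746. The library labelled SNHG5 3 lay inside the control range for that gene, so every direction given below for the SNHG5 group rests on the labels. Total counts ran from 13378079 to 16823958 in the SNHG5 group and from 14798193 to 16999604 in controls. Of 11 epithelial markers 8 were abundant enough to be tested, among them KRT8 and KRT18, while the surfactant genes SFTPB and SFTPC were at 0. The leukocyte markers PTPRC and CD3E were also at 0, and CD68, which epithelial lines also express, averaged 34.5 CPM in SNHG5 libraries and 86.1 CPM in controls (edgeR adjusted p of 0.0948). The 5 fibroblast markers summed to 2.91 to 17.7 CPM in SNHG5 libraries and 8.20 to 15.8 CPM in controls, and the 3 endothelial markers to 0 and to at most 0.133 CPM.

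A C2H2 zinc finger is a short fold in which a pair of cysteines and a pair of histidines hold a zinc ion, and strings of such fingers read DNA. Many chromosome 19 members arose by tandem duplication, and most carry a KRAB domain ahead of the fingers. KRAB binds the co-repressor TRIM28, which brings the H3K9 methyltransferase SETDB1 and HP1 proteins to the bound site, often a retroelement.

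One finger from each of 6 genes shows how coding sequences differ between members at either end of the difference between the second control library and the mean of the other 5. Shown are the 3 members with the lowest and the 3 with the highest difference among those with a mean log2 CPM of at least 2 and a finger matching the pattern, so that ZNF570 and ZNF547, which have lower counts, are left out. In the 78 bases of each, read 5′ to 3′ on the gene's strand from GENCODE release 29, capitals mark the codons of the metal-binding cysteines and histidines and the last bases are the linker to the next finger. In the first 3 control 2 was the lowest of the 6 libraries. In ZNF358 and ZNF787 it was the highest, while ZNF548 was above the mean of the other 5 in control 2 but below SNHG5 1 and control 1.
ZNF614: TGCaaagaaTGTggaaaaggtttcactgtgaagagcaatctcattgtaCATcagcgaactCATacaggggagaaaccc
ZNF146: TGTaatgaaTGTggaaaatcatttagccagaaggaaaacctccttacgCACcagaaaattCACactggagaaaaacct
ZNF430: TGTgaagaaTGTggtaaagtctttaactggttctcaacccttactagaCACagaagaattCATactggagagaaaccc
ZNF358: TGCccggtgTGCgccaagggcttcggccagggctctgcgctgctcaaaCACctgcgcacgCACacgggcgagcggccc
ZNF787: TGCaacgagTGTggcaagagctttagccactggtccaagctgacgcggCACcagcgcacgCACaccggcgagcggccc
ZNF548: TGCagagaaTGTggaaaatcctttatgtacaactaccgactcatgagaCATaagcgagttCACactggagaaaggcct
On GRCh38 these lie in coding exons at chr19:52016572-52016649 on the minus strand (ZNF614), chr19:36236660-36236737 on the plus strand (ZNF146) and chr19:21057011-21057088 on the plus strand (ZNF430). The others are at chr19:7520035-7520112 on the plus strand (ZNF358), chr19:56088893-56088970 on the minus strand (ZNF787) and chr19:57399050-57399127 on the plus strand (ZNF548). The finger scaffold is shared, while G and C fill 92.3% of the wobble positions, the last base of each codon, in the ZNF358 and the ZNF787 finger. The corresponding share is 38.5% in the ZNF614 finger, 34.6% in that of ZNF146 and 30.8% in that of ZNF430. In the ZNF548 finger it is 42.3%. A finger of this kind was found in 144 of the 156 expressed members, with a median GC content of 43.6% in the 127 with a KRAB match and 56.4% in the 17 without.

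Most expressed members were KRAB genes. A pattern for the KRAB A box, searched in the translated longest coding sequence, matched 208 of the 246 members, of which 127 (61.1%) were expressed. Of the 38 members without a match, 29 (76.3%) were expressed. A truncated annotation can hide a KRAB box, and a box that departs from the pattern is missed. The group without a match may therefore hold some KRAB genes. The expressed members encoded 1 to 29 fingers with a median of 12, the median being 13 with a KRAB match and 8 without. Over the longest transcript the median GC content was 42.8% with a KRAB match and 60.9% without one.

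Levels were mostly low. The mean deposited FPKM (the authors' level scaled by gene length and library total) had a median of 0.982 over the 156 members, against 3.74 over 710 other expressed protein-coding genes of chromosome 19 and 1.43 over 226 expressed ZNF genes of other chromosomes. The median was 0.756 FPKM with a KRAB match and 2.30 FPKM without. Only 10 members averaged 5 FPKM or more, and 9 of them had no KRAB match: ZNF146, ZNF787, ZNF526, ZNF428, ZNF865, ZNF134, ZNF574, ZNF507 and ZNF579, with ZNF480 as the KRAB member. ZNF146, a protein made almost wholly of fingers and known to be amplified in some carcinomas, was the highest at 47.8 FPKM. It is set apart from the next, ZNF787 at 20.02 FPKM and ZNF526 at 11.8 FPKM. All members together took between 0.190% and 0.291% of the counts of a library.

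Among members of known role, the retroelement repressor ZNF93 had no count, and ZNF91, which silences SVA elements, stayed between 0.185 and 1.13 CPM. ZNF382, a KRAB repressor often silenced in carcinomas, reached at most 0.655 CPM, and ZNF649 lay between 0.200 and 1.24 CPM. ZNF274, which brings SETDB1 to the ends of zinc finger genes, was well expressed at 57.4, 51.0 and 33.2 CPM in SNHG5 libraries, against 54.4, 42.2 and 40.6 CPM in controls. Its groups overlapped, with a log2 fold change of 0.04 (SE 0.25). ZNF224, a cofactor of WT1, had 20.1, 18.6 and 26.4 CPM in SNHG5 libraries and 25.5, 12.2 and 11.2 CPM in controls, again overlapping. ZNF444, a SCAN-domain activator, had 8.86, 22.0 and 31.5 CPM in SNHG5 libraries against 38.9, 20.9 and 33.6 CPM in controls, and the lowest value was that of SNHG5 1.

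No expressed member passed the test between SNHG5 and control libraries. With edgeR's quasi-likelihood test and Benjamini-Hochberg adjustment over 15631 genes, 0 of 156 members were called at 0.05, against 20 genes or 0.128% of all tested, and the lowest adjusted p was 0.202. At an unadjusted p under 0.05 there were 10 members, 6.41% of the 156, against 6.49% of all genes tested. These were 4 with a higher and 6 with a lower level in SNHG5 libraries, where all genes gave 2.09% higher and 4.41% lower. In 8 members every SNHG5 library was above every control, as in 6.04% of all genes tested, and in 13 every one was below, as in 7.52% of all genes. Together these were 13.5% of members against 13.6% of all genes tested. The members' shares were close to the background in each of these counts. The groups share replicate numbers, which the fit above did not use. With that number as a block, edgeR called 0 members against 0.467% of all genes. There 18 members (11.5%) had an unadjusted p under 0.05, against 9.29% of all genes. DESeq2 called 1 member, where it called 1.45% of all genes, and limma-voom called 0, where it called 0.154% of all genes. At an unadjusted p under 0.05, DESeq2 had 14 members (8.97%, against 6.70% of all genes) and limma-voom 12 (7.69%, against 6.83%). With 1 library left out, the number of such members in edgeR moved, and so did the share of all genes. Without SNHG5 1 there were 7 (4.49%, against 3.57% of all genes), without SNHG5 2 also 7 (against 3.96%), and without SNHG5 3 there were 22 (14.1%, against 21.2%). Without control 1 there were 11 (7.05%, against 6.44%), without control 2 there were 6 (3.85%, against 5.43%), and without control 3 there were 15 (9.62%, against 4.63%). In bulk RNA, fewer cells of a type and less RNA per cell cannot be told apart.

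The member called by DESeq2 was ZNF296, which in mouse raises the efficiency of reprogramming to pluripotency. It had 2.43, 2.47 and 4.19 CPM in SNHG5 libraries, against 7.13, 8.00 and 8.25 CPM in controls. All SNHG5 libraries lay below all controls, with SNHG5 3 nearest to them. The log2 fold change was -1.36 (SE 0.31), with an adjusted p of 0.202 by edgeR, 0.149 with the replicate block and 0.0147 by DESeq2. Without SNHG5 3, the library whose SNHG5 level was in the control range, edgeR gave an adjusted p of 0.0443 for this gene, in a fit that called 1.03% of all genes. Over all alternatives the adjusted p ran from 0.0147 to 0.762, and with a correction for GC content the fitted value was -0.88. Another annotated gene overlaps ZNF296, so reads of the overlap are assigned with uncertainty.

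The other members with the most negative fitted values also lacked a KRAB match and were rich in G and C. ZNF787 had 43.6, 59.97 and 59.96 CPM in SNHG5 libraries, against 87.3, 148 and 77.2 CPM in controls, a log2 fold change of -0.93 (SE 0.29) with an edgeR adjusted p of 0.518. Its groups did not overlap, and the highest value was that of control 2, without which the fitted value was -0.59. ZNF784 had 5.34, 5.60 and 6.93 CPM in SNHG5 libraries and 11.3, 12.6 and 7.27 CPM in controls, again without overlap, a log2 fold change of -0.80. ZNF628 and ZNF837 had fitted values of -0.85 and -0.92 with overlapping groups, and that of ZNF628 was -0.55 without SNHG5 3. ZNF580 had 14.7, 4.44 and 10.1 CPM in SNHG5 libraries against 23.3, 6.23 and 25.2 CPM in controls, so that both libraries numbered 2 were low, and its fitted value of -0.90 became -0.56 without SNHG5 2. ZNF574, among the most even members, had 54.7, 58.3 and 68.2 CPM in SNHG5 libraries against 82.5, 83.2 and 82.3 CPM in controls. Its log2 fold change was -0.45 (SE 0.17), with an edgeR adjusted p of 0.724.

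Members with the most positive fitted values were mostly KRAB genes, as were the expressed members as a whole (127 of 156). In several of those with the most positive values single libraries stood apart. ZNF615 had 9.34, 10.1 and 6.64 CPM in SNHG5 libraries against 5.66, 2.89 and 4.37 CPM in controls, which did not overlap, with a log2 fold change of 1.01 (SE 0.33) and an edgeR adjusted p of 0.568. ZNF791 had 40.5, 32.7 and 21.5 CPM in SNHG5 libraries against 5.73, 17.2 and 19.8 CPM in controls, a log2 fold change of 1.15 (SE 0.46). SNHG5 3 and control 3 were close to each other for that gene, and control 1 was far below the rest. ZNF551 had the highest fitted value, 1.76 (SE 0.63), from 11.4, 1.97 and 14.4 CPM in SNHG5 libraries against 2.87, 2.95 and 2.40 CPM in controls. Its SNHG5 2 value was the lowest of all 6, so the groups overlapped. ZNF260, a member without a KRAB match that acts in rodent heart muscle, had 75.4, 79.1 and 66.8 CPM in SNHG5 libraries against 8.86, 26.6 and 70.4 CPM in controls. Controls 1 and 2 were low and control 3 was inside the SNHG5 range. Without control 1 its fitted value was 0.60 and without control 3 it was 2.05, against 1.06 with all libraries. ZNF546 and ZNF418 had fitted values of 1.30 and 1.25, both with overlapping groups, and these became 2.03 for ZNF546 without control 1 and 0.81 for ZNF418 without SNHG5 3.

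The fitted changes of the 2 domain classes lay on opposite sides of 0. The median log2 fold change was 0.13 over the 156 members, with 97 (62.2%) above 0 against 50.7% of all genes tested, whose median was 0.01. It was 0.17 over the 127 members with a KRAB match, of which 89 were above 0, and -0.45 over the 29 without, of which 8 were above 0. In those 29 the library that stood lowest was SNHG5 1, lowest of 6 in 15 of them (51.7%) and with a median of -0.44 against the other 5 libraries. It was lowest in 22.2% of all genes tested. In the other expressed protein-coding genes of chromosome 19, SNHG5 1 was lowest in 52.7%, also with a median of -0.44. Over all genes tested, Spearman's rho of GC content with the difference of SNHG5 1 from the other 5 was -0.50. Without SNHG5 1 the median log2 fold change of these 29 was -0.33. ZNF genes of other chromosomes had a median of 0.04, and the other protein-coding genes of chromosome 19 a median of -0.32. All 6 members with a lower level at an unadjusted p under 0.05 (ZNF296, ZNF787, ZNF784, ZNF653, ZNF574 and ZNF579) were without a KRAB match. All 4 with a higher level (ZNF615, ZNF551, ZNF791 and ZNF613) had a match, as did 127 of the 156 expressed members. Without control 2 the median was 0.003 over all members and 0.04 over those with a KRAB match, while it was -0.42 over those without. Without control 1 it was 0.27 over all members and 0.32 over those with a KRAB match.

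**Figure D1:**
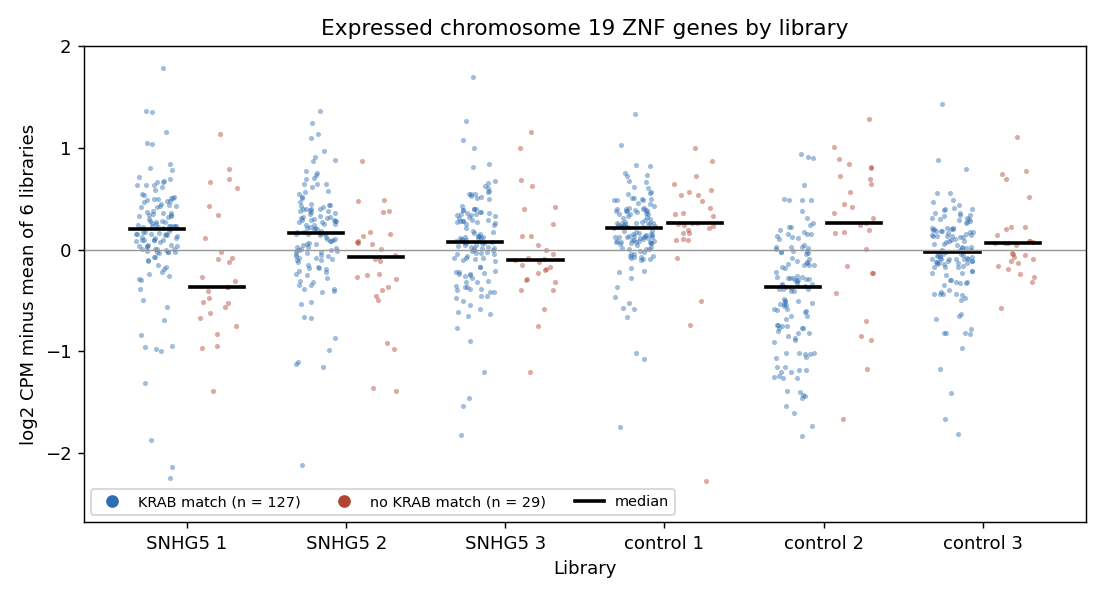
Level of each of the 156 expressed members in each library, as log2 CPM minus that gene's mean over the 6 libraries (vertical axis), with SNHG5 libraries on the left and controls on the right. Points are genes, colour marks the KRAB match and bars are medians; KRAB members in control 2 have the lowest median of any library, -0.37.

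Control 2 stood apart from the other 5 libraries in these genes. This library was singled out after its values had been seen and is 1 sample, so the values are a description without a test. The median member was -0.35 on the log2 scale in control 2 relative to the mean of the other 5, while the median of all genes tested was 0.03. There, 107 members (68.6%) were below the other libraries' mean, against 48.2% of all genes, and 34 (21.8%) were over 2-fold lower, against 8.57% of all genes. Over 2-fold higher were 7 members (4.49%), against 5.57%. Control 2 was the lowest of the 6 libraries in 67 members (42.9%), against 26.7% of all genes tested. The 226 expressed ZNF genes of other chromosomes came near the members. Of those, 62.8% were below the other libraries' mean, 18.6% were over 2-fold lower and 38.5% had control 2 lowest. The same median, taken for each other library against its own remaining 5, was 0.18, 0.14 and 0.05 in SNHG5 libraries 1 to 3, 0.26 in control 1 and -0.02 in control 3. Set against controls 1 and 3 only, which leaves the transfection out, the control 2 median was again -0.35. Control 2 is also 1 of the 3 controls in the group comparison, so the comparisons share it.

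The low values in control 2 lay mainly among the KRAB members, which were 127 of the 156 expressed. Their median difference was -0.45, with 98 of 127 below the mean of the other libraries and 63 (49.6%) lowest of 6. Members without a KRAB match had a median of 0.31, with 9 of 29 below and 4 lowest of 6. Over 2-fold lower were 30 KRAB members (23.6%) and 4 members without a match (13.8%), against 8.57% of all genes tested. ZNF146 was among those without a match. Against controls 1 and 3 only, the medians were -0.48 and 0.08. ZNF genes of other chromosomes had a median of -0.20, and the 710 other expressed protein-coding genes of chromosome 19 a median of 0.42. Those 710 genes had a median GC content of 60.5%, against 43.3% in the members. With the correction for GC content described below, their control 2 median was 0.09.

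ZNF146, the highest member by FPKM, was among those with the largest difference. It had 116 CPM in control 2, against 595, 517 and 380 CPM in SNHG5 libraries and 469 and 391 CPM in controls 1 and 3. Its log2 difference was -1.99, and the deposited FPKM was 14.0 in control 2 against 43.7 to 68.8 in the others. For ZNF507 control 2 gave 42.4 CPM and the other 5 libraries 89.9 to 146 CPM, and for ZNF480 the values were 29.4 CPM and 65.2 to 109 CPM. In each of these genes control 2 lay below the whole range of the others.

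**Figure D2:**
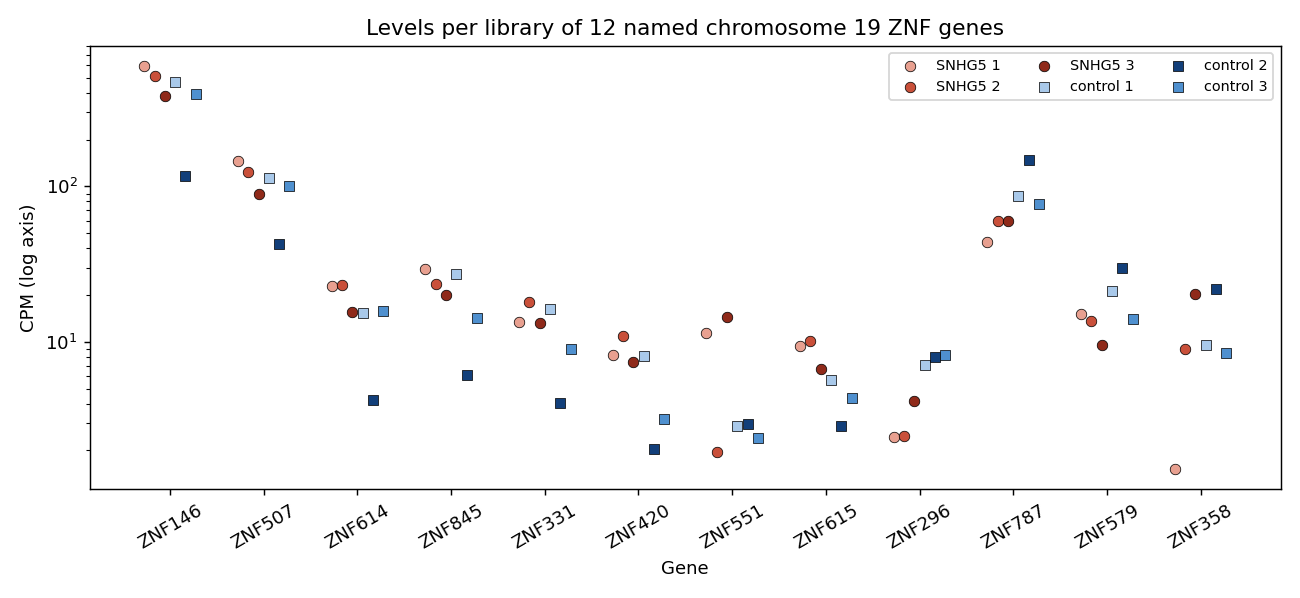
CPM on a log axis in each of the 6 libraries for 12 named members, with red circles for SNHG5 libraries and blue squares for controls, the darkest square being control 2. Control 2 is the lowest point for ZNF146 (116 CPM), ZNF507, ZNF614, ZNF845, ZNF331, ZNF420 and ZNF615, and the highest for ZNF787, ZNF579 and ZNF358.

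The lowest values in control 2 after ZNF570 (-2.20, at 0.525 CPM in control 2 against 2.33 to 3.998 CPM in the others) belonged to ZNF614, ZNF146, ZNF430, ZNF845, ZNF112, ZNF420 and ZNF331. ZNF614 had 4.197 CPM in control 2, against 22.8, 23.4 and 15.5 CPM in SNHG5 libraries and 15.4 and 15.7 CPM in controls 1 and 3. ZNF845 had 6.10 CPM in control 2 against 14.2 to 29.6 CPM. ZNF331, an imprinted gene that is methylated in several carcinomas, had 4.07 CPM in control 2 against 8.93 to 18.1 CPM. ZNF420, known as Apak and a negative regulator of p53 targets, had 2.03 CPM in control 2 against 3.20 to 10.9 CPM, with control 3 next lowest. ZNF675, an inhibitor of TRAF6 signalling, had 2.49 CPM in control 2 against 5.90 to 9.13 CPM. ZNF350, the BRCA1 partner ZBRK1, had 6.16 CPM in control 2 against 8.73 to 14.1 CPM. In all of these control 2 was the lowest library.

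The 4 members highest in control 2 relative to the other libraries were ZNF358, ZNF787, ZNF547 and ZNF548. ZNF358 had 22.0 CPM in control 2, against 1.52, 9.03 and 20.2 CPM in SNHG5 libraries and 9.60 and 8.499 CPM in controls 1 and 3, so SNHG5 3 was close to it and SNHG5 1 far below. ZNF787 was at 148 CPM in control 2, while the other libraries ran from 43.6 to 87.3 CPM. The neighbours ZNF547 and ZNF548 come here through low values in some other libraries: ZNF548 had 8.07 CPM in control 2, against 10.98, 0.873 and 5.36 CPM in SNHG5 libraries and 10.9 and 1.11 CPM in controls 1 and 3. ZNF548 shares 23.6% of its 50-base transcript stretches with other genes, most with the overlapping AC003002.3, and ZNF358 shares 19.5%, so their counts are uncertain. In all, 18 of the 156 expressed members share over 20% of such stretches with another gene, the related ZNF587, ZNF587B, ZNF814 and ZNF417 among them. Overlapping genes on the same strand were annotated for 59 expressed members and on the opposite strand for 77.

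Base composition moved with both comparisons. Over the 31 expressed members with under 40% GC in the longest transcript, the median difference in control 2 was -1.23 and the median log2 fold change of SNHG5 over control 0.46. Over the 16 with more than 60% GC the medians were 0.80 and -0.76. All genes tested ran the same way in the same GC bands, with -0.51 and 0.29 under 40% GC and 0.46 and -0.33 over 60% GC. Across the 156 members, Spearman's rho of GC content with the control 2 difference was 0.64 and Pearson's r 0.65, and with the log2 fold change rho was -0.60 and r -0.67. Across the 15587 tested genes with a known GC content the corresponding rho values were 0.44 and -0.49. Genes of 1 library share its preparation and are not independent points. Within the 127 KRAB members alone, rho was 0.53 for the control 2 difference and -0.37 for the log2 fold change.

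**Figure D3:**
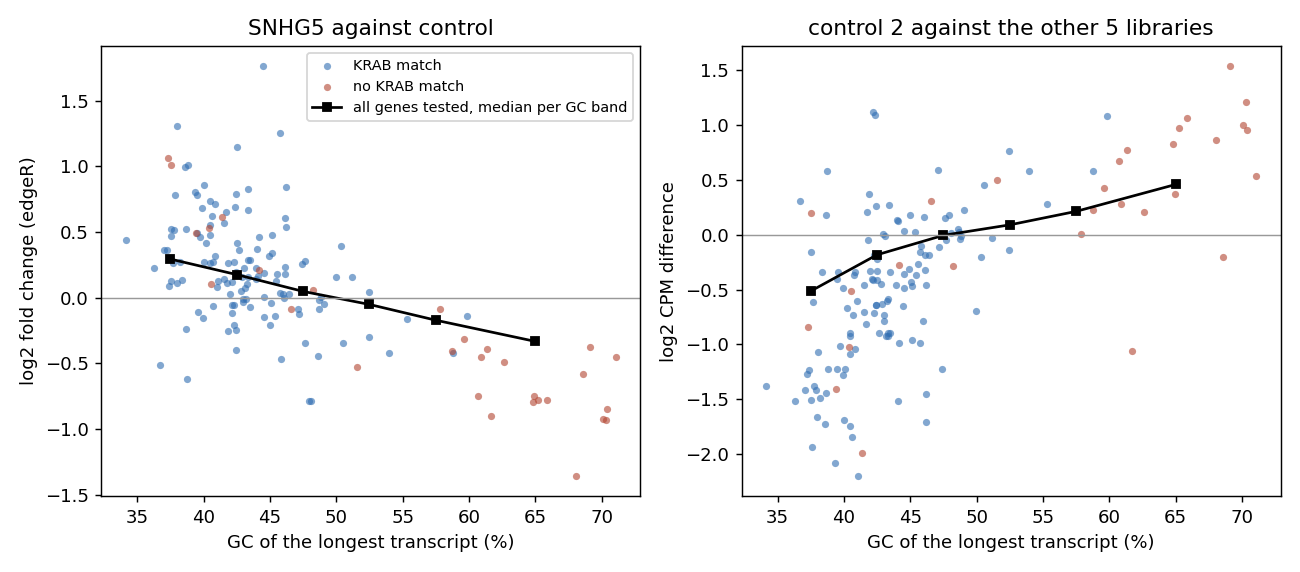
GC content of the longest transcript (horizontal axis, percent) against the log2 fold change of SNHG5 over control (left panel) and the log2 CPM difference of control 2 from the other 5 libraries (right panel). Points are the 156 expressed members, coloured by KRAB match, and black squares are medians of all genes tested per GC band; members under 40% GC have medians of 0.46 on the left and -1.23 on the right.

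Domain class and base composition were largely, but not wholly, the same split. The 10 members without a KRAB match under 55% GC, among them ZNF146, ZNF507, ZNF260, ZNF121 and ZNF134, had a median of -0.40 in control 2 and a median log2 fold change of 0.35. The 124 KRAB members under 55% GC had -0.46 and 0.18. The 19 members without a KRAB match over 55% GC had 0.67 and -0.75, and the 3 KRAB members over 55% GC (ZNF324, ZNF324B and ZNF584) had 0.58 and -0.16. In both domain classes the medians took the sign of their GC class, although 3 genes are few. The parts of domain class and GC content in these values were not tested. ZNF580, at 61.7% GC, was an exception, with -1.06 in control 2.

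When each library was corrected for its trend with GC content over all genes, the differences between the classes became smaller. The control 2 median was then -0.22 over all members, -0.28 over KRAB members and -0.038 over those without a KRAB match. Over all members the corrected median of control 1 was 0.24, larger in size than that of control 2. The corrected member median was 0.05, 0.10 and 0.10 in SNHG5 libraries 1 to 3 and -0.03 in control 3. In control 2, ZNF genes of other chromosomes had a corrected median of -0.13 and all genes tested 0.007. Control 2 was the lowest of 6 in 59 members after that correction, against 67 before it. No such share over all genes is given after the correction, so the 59 cannot be set against a background. ZNF146 had a corrected difference of -1.73, ZNF614 of -1.63 and ZNF331 of -1.67. The median log2 fold change of SNHG5 over control became 0.04 over all members, 0.08 over KRAB members and -0.13 over those without a match, and 0 members were called by edgeR with that correction, against 0.166% of all genes. At an unadjusted p under 0.05 there were 4 members (2.56%), against 5.90% of all genes.

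Other values that set control 2 apart concern classes of RNA and base composition. Mitochondrially encoded genes took 2.57% of counts in control 2 against 3.80% to 6.16% in the others, and ribosomal protein genes 3.41% against 1.89% to 2.30%. The nuclear RNAs MALAT1, NEAT1 and KCNQ1OT1 were at 28.1, 23.4 and 0.394 CPM in control 2, against ranges of 118 to 476, 102 to 213 and 3.20 to 9.43 CPM in the other libraries. The mean GC content of the counts was 49.6% in control 2, against 47.4% to 48.7% in the others. Of the early response genes, FOS, JUN, EGR1 and ATF3 were inside the range of the other libraries in control 2, at 6.95, 263, 24.7 and 23.1 CPM. IER2 was above it, at 126 CPM against 32.8 to 84.4 CPM. MYC, at 7.08 CPM in control 2, lay within the SNHG5 libraries (5.76 to 39.9 CPM) but far below controls 1 and 3 (187 and 127 CPM). The part of these measures in the members' values was not tested. Spearman's rho between log2 transcript length and the control 2 difference was -0.34 over the members and -0.36 over all genes tested.

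Position on the chromosome gave unequal groups. With a new group at each gap of over 1 Mb between members, the 246 genes fell into 16 groups. The group at chr19:51571298-53580269, from ZNF175 to ZNF331, held 39 members of which 17 were expressed, all with a KRAB match and with a median GC content of 40.6%. Control 2 was below the mean of the other libraries in all 17, with a median difference of -1.09, and lowest of 6 in 14. The median log2 fold change of that group was 0.52, with 16 of 17 above 0. In the group at chr19:19668796-24129961, from ZNF101 to ZNF254, 10 of 37 members were expressed and the median in control 2 was -1.12. Among its members without a count were ZNF93, ZNF98 and ZNF99.

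The group at chr19:55476332-58481230, the largest, from ZNF628 to ZNF446, contrasted with these. It had 51 of 59 members expressed, 38 of them with a KRAB match, and a median GC content of 46.6%. Its median in control 2 was 0.00, with 25 of 51 below the other libraries and 10 lowest of 6, and its median log2 fold change was -0.05. The group at chr19:43525497-45076588, from ZNF575 to ZNF296, had 23 of 24 members expressed and a median in control 2 of -0.46. The group at chr19:36182060-37817300, from ZNF565 to ZNF573, had 17 of 26 expressed and a median of -0.60. Within a group the members still differed: in the 17 expressed genes of that last group the control 2 differences ran from -2.20 in ZNF570 to 0.37 in ZNF850.

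**Figure D4:**
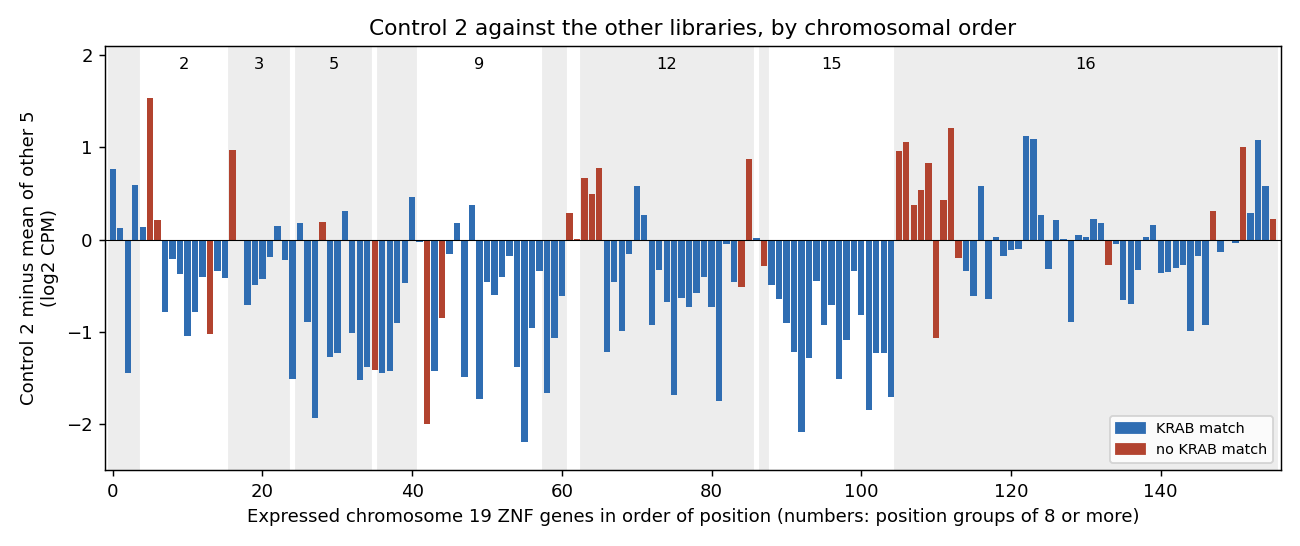
Difference of control 2 from the mean of the other 5 libraries (vertical axis, log2 CPM) for the 156 expressed members in their order along the chromosome (horizontal axis, rank), with shading and numbers for position groups of 8 or more expressed members. Blue bars are KRAB members and red bars members without a match; group 15 lies wholly below 0, with a median of -1.09, and group 16 around 0.

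The partners of KRAB were expressed in every library and had no call, as nearly all genes tested. Of 22 listed co-repressor symbols 21 were in the table, FAM208A being the older name of TASOR, and all 21 were tested. None was called by edgeR, against 0.128% of all genes, and the lowest edgeR adjusted p was 0.746. At an unadjusted p under 0.05 there were 0, against 6.49% of all genes. DESeq2 and limma-voom called 0, against 1.45% and 0.154% of all genes. At such shares a list of 21 genes would rarely hold a call. TRIM28, the scaffold that KRAB binds, had 321, 337 and 414 CPM in SNHG5 libraries against 492, 445 and 511 CPM in controls. All its SNHG5 libraries were below all controls, as in 7.52% of all genes tested. The log2 fold change was -0.43 (SE 0.19), and TRIM28 is rich in G and C (63.7%). SETDB1 averaged 37.2 ± 2.37 CPM in SNHG5 libraries and 37.6 ± 5.49 CPM in controls (SD, n = 3 each). In control 2 the list had a median of -0.28, lowest in MORC3, an ATPase that acts in retroelement silencing, at 13.4 CPM in control 2 against 40.9 to 67.0 CPM in the others. Among 20 further chromosome 19 zinc finger genes found under other names, such as HKR1 and ZFP28, 12 were tested and 6 were at 0. By edgeR 0 were called or had an unadjusted p under 0.05, beside the same shares of all genes. Their median in control 2 was 0.03.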

How the data were processed

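The authors deposited whole-number counts and FPKM per gene for each library in 1 table, per the file headers. FPKM was used only to describe levels. Per the submitters' processing notes the tools were FastQC and HISAT2 on GRCh38. The RNA kit does not mark strand, and how reads were counted is not given in the sources used here. All members, gene lists and the rule for named genes (highest FPKM, extreme fitted values, extremes in control 2, genes at the minimum, genes of known role) were chosen with earlier results of these data known. ZNF653, ZNF613, MORC3, ZNF121 and ZNF850 and others outside that rule were named after their values were seen.

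The test was that of edgeR 4.0.16 under R 4.3.3 (TMM factors, filterByExpr, robust quasi-likelihood, two-sided, Benjamini-Hochberg at 0.05), and the step was tested on simulated data. The simulated counts held no GC trend, deviant library or replicate structure, so they do not show how the test behaves under these. A standard error is the log2 fold change divided by the square root of F. Log2 CPM used a prior count of 2. Control 2 minus the mean of the other 5 libraries has no test. Transcripts, GC content, KRAB and finger patterns come from GENCODE 29, in which all 246 symbols matched and 239 had the deposited coordinates. GC correction was a loess (span 0.3) of each library's deviation from the gene mean. Alternatives used DESeq2 1.42.0 and limma 3.58.1.

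Replicate numbers recur in both groups. Gene-wise deviations from each group's mean correlated at 0.35, 0.16 and 0.29 between libraries of the same number and from -0.34 to 0.12 otherwise. The labels do not call same-numbered libraries pairs. The main fit did not use the number, and it entered only the alternative fit with the replicate block. Counts of any pair of libraries differed by more than sampling noise. The floor of 3 counts covers counting error only.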

Additional observations from a re-analysis of the deposited data

How the results depend on the processing

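The count of members called higher was 0 under every alternative tried: the replicate block, each library left out, other size factors, library totals, no filter, other CPM minimums, DESeq2, limma-voom, the GC correction and leaving out members that share stretches. The count called lower was 1 (ZNF296) with DESeq2, and 0 to 1 over the fits that leave out 1 library, with 1 when SNHG5 3 was left out. Of all genes tested, the fit without SNHG5 1 called 1, and those without SNHG5 2, control 2 or control 3 called 0. A member count of 0 was thus fixed or nearly so in these fits and says nothing of the members. The shares of all genes called were 0.128% with other size factors, 0.109% with library totals, 0.272% with no filter and 0.136% without control 1. Leaving out 1 library moved the median log2 fold change between 0.003 and 0.27 over all members, the lowest without control 2 and the highest without control 1, and between -0.55 and -0.33 over members without a KRAB match. With the replicate block it was 0.13 and -0.46. The GC correction, the medians by KRAB match and the exclusion of members that share stretches were chosen after seeing the data. With the correction the median log2 fold change of members without a KRAB match was -0.13, and the control 2 medians were -0.22 over all members, -0.28 with and -0.038 without a KRAB match. The control 2 median over all members stayed between -0.37 and -0.30 when 1 of the other libraries was left out. DESeq2 called 262 and the replicate block 73 of all genes, against 20 with edgeR. Of 481 refitted values of the 37 named members that were tested, 479 kept their side of the threshold, 2 (ZNF296) gained a call and 21 in 9 genes changed sign without a call. Where a fit called 0 of all genes, a value could only keep its side. The precision is set by 3 libraries per group with a biological coefficient of variation of 30.8%.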
